A study of Mus musculus with 2 samples.

Results

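The 39 genes described here make, modify and store fatty acids, wax esters and sterols, or regulate these steps, and they were measured among 56694 genes in single cells of newborn mouse back skin. Each was found by its symbol in the authors' gene table, and the members were grouped by role into 4 regulators, 9 genes of fatty acid synthesis and desaturation, 6 genes of elongation, 10 genes of storage, wax and sebum, and 10 genes of sterol synthesis. The study compared the epidermis of control mice with that of Gli2EKO mice at postnatal day 2, to ask how losing Gli2, a transcription factor of the Hedgehog pathway, alters the cells of the skin and its appendages. Gli2EKO mice, labelled Gli2_EKO, carried floxed Gli2 alleles and a K14Cre transgene (K14Cre tg; Gli2 fl/fl), in which the keratin 14 promoter drives Cre in epidermal keratinocytes and not in dermal cells. Controls, labelled WT, were floxed littermates without Cre. Both groups were on the C57BL/6N background. There was 1 library per genotype, and how many mice went into each was not stated. Differences between the genotypes therefore have no replicate check, and the genotype cannot be told apart from the library.

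Fatty acids are built from acetyl-CoA by Acly, Acaca and Fasn, made monounsaturated by the Scd desaturases, and lengthened by the Elovl elongases. The sebaceous gland, an appendage of the hair follicle, turns these products into triglycerides, wax esters and sterol esters, and its cells fill with lipid droplets and burst to release sebum. The granular layer of the interfollicular epidermis uses very long chain fatty acids and sterols for the lipid barrier, and most cells make some sterol through the mevalonate pathway, under the control of the SREBP transcription factors and the sensor INSIG1.

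The control library held 71021773 UMIs (unique molecular identifiers, 1 per captured RNA molecule) over 6326 barcodes and the Gli2EKO library 48866478 UMIs over 4296 barcodes, and the libraries shared 0 barcodes. Cells were clustered without the members, and the clusters were named by fixed marker genes that include none of them. This gave 44 control and 26 Gli2EKO sebocyte-like cells (hereafter sebocytes), 66 and 70 granular-like cells, 3214 and 2206 other keratinocytes, and 844 and 644 dermal cells, that is fibroblasts and dermal papilla cells carried along in the epidermal preparation. Sebocytes made up 1.32% and 1.13% of keratinocytes, and their median depth was 19067.5 and 28645.5 UMIs per cell. The 8 sebocyte markers summed to 7113 and 8887 CPM in this class (counts per 1000000 UMIs of the class) and to 504 and 601 in other keratinocytes. Muc1 was at 0 in sebocytes, and Krt79, the largest marker there, was also high in granular-like cells, at 5609 and 8169 CPM. Adipoq, Cfd and Lep, which mark fat cells, had 0 UMIs in sebocytes of both libraries. In granular-like cells, Lor, Flg and Krt79 were at 17562, 12951 and 5609 CPM in the control and at 609, 4099.9 and 8169 in the Gli2EKO library. The class was mixed. Its 10 granular markers summed to 49122 CPM in the control and 6475 in the Gli2EKO library (146 and 332 in other keratinocytes), with 15 of 66 and 7 of 70 cells above 10000, while its spinous markers summed to 32535 and 40018 and its upper follicle markers, Krt79 among them, to 6062 and 8924. Lower outer root sheath markers summed there to 8126 and 12807.5, companion markers to 6783 and 7347, and sebocyte markers to 6044 and 8634. In the Gli2EKO library each of these other sums was above the granular sum. Values of this class are therefore those of a cluster with few cells high in granular markers, and not of the granular layer as such. Gli2 itself was at 87.2 and 90.0 CPM in other keratinocytes of the control and Gli2EKO library, so that it did not separate the labels. The sources used here do not say which part of the transcript is deleted, and 3' tags outside that part check nothing, so genotypes are given here as labelled. The paper measured Gli2 mRNA separately, by qRT-PCR in back skin epidermis of slightly older Gli2EKO and control mice. In sebocytes, Gli2 had 18 control UMIs and 2 Gli2EKO UMIs.

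Sebocytes carried the highest level of most of the 39 genes. Summed over all members, 45898 and 52192 CPM belonged to the list in control and Gli2EKO sebocytes, or 4.59% and 5.22% of all their UMIs, against 0.184% and 0.157% in other keratinocytes. With a call set at 2-fold in the same direction in both libraries, 35 of 39 members were higher in sebocytes than in other keratinocytes, where 9.75% of the 18359 genes with enough UMIs were. Only Fads1 and Fads2 were called lower, where 17.7% of all genes were. The median log2 ratio of the members was 3.29 in the control and 3.61 in the Gli2EKO library, and that of all genes was -0.16 and -0.21. Over 16 classes (endothelial and smooth muscle cells, which were few, were not ranked), 30 of 39 members were highest in sebocytes in both libraries. All intervals given here are exact 95% intervals that cover counting error only, since cells of 1 library are not replicates.

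**Figure D1:**
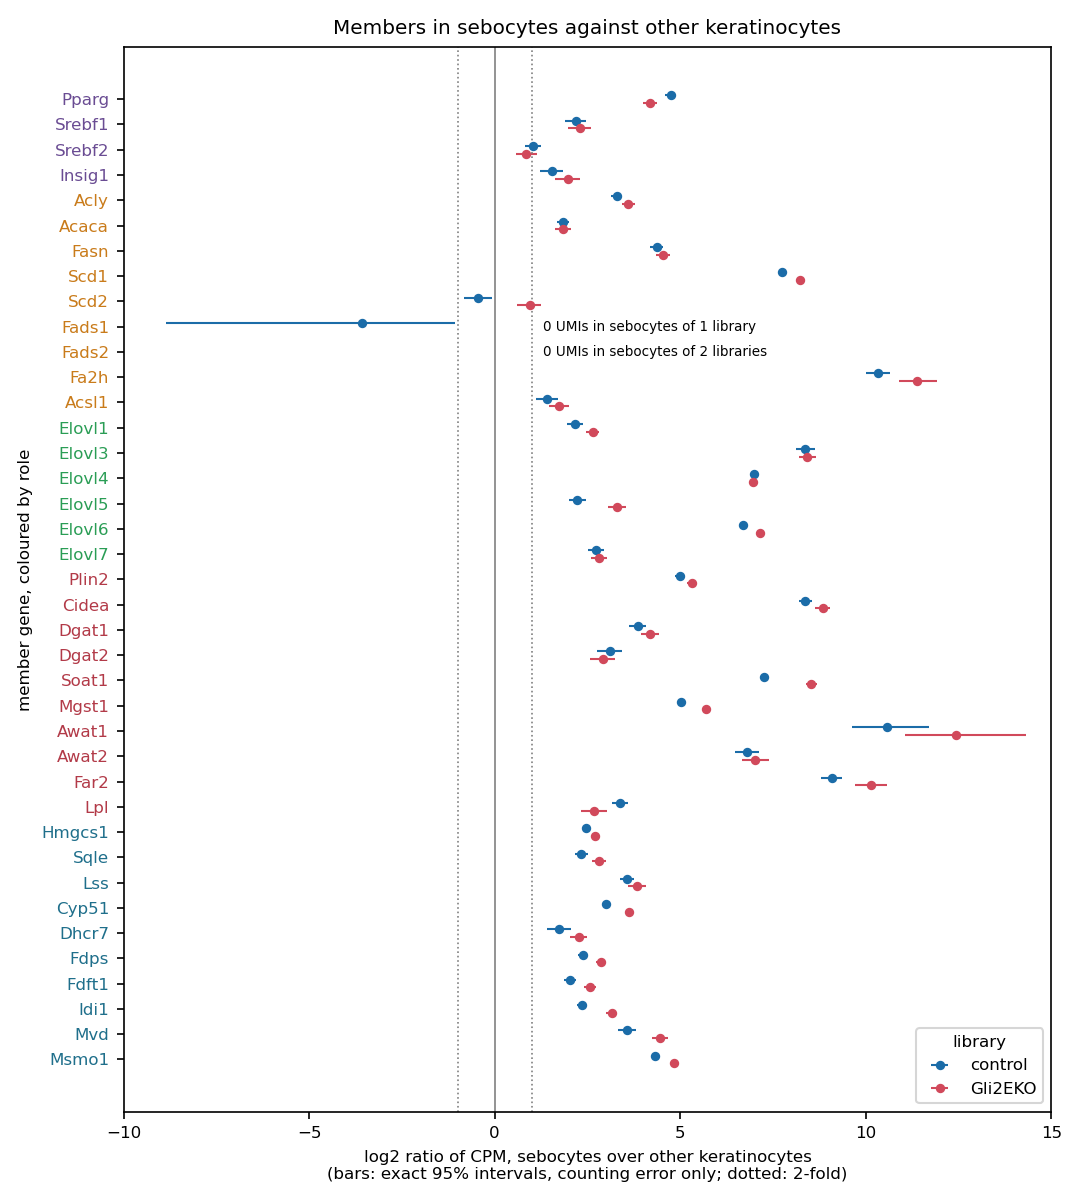
Log2 ratio of CPM in sebocytes over other keratinocytes for each of the 39 members, in the control (blue) and Gli2EKO (red) library, with exact 95% intervals for counting error. Points lie right of the 2-fold line in both libraries for 35 members; Srebf2 lies near it in both, Scd2 lies below 0 in the control and near the line in the Gli2EKO library, and Fads1 and Fads2 had 1 UMI or none in sebocytes.

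Among the regulators, Pparg, the nuclear receptor that drives sebocyte and fat cell differentiation, was found at 592 and 445 CPM in control and Gli2EKO sebocytes against 22.0 and 24.5 in other keratinocytes. That is a ratio of 26.9-fold and 18.1-fold, and every sebocyte of both libraries had a Pparg UMI. The next highest level was in the upper follicle, which borders the gland, at 126 and 147 CPM. After thinning each cell to 2000 UMIs, 56.8% and 57.7% of sebocytes had a Pparg UMI, against 3.02% and 3.06% of other keratinocytes, and these shares were 100% and 100% and 7.31% and 6.35% before thinning. Immune and endothelial cells, taken as a background, had 10.9% and 5.88% on the thinned scale, above the share in other keratinocytes. Whether this was their own Pparg or stray RNA was not tested, so for Pparg they set no floor. The share in other keratinocytes also pools the upper follicle with classes of lower level.

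The SREBP arm was less tied to the gland. Srebf1, which encodes the SREBP of fatty acid synthesis, was at 122 and 122 CPM in sebocytes and 26.8 and 24.9 in other keratinocytes, a ratio of 4.55-fold and 4.90-fold. Srebf2, the SREBP of sterol synthesis, did not pass 2-fold in both libraries, with log2 ratios of 1.04 [0.81, 1.25] and 0.85 [0.56, 1.13]. Insig1, which holds the SREBPs back when sterols are plentiful, was 2.92-fold and 3.93-fold higher in sebocytes. Melanocytes had 129.9 and 106 CPM of it against 96.7 and 105, which was level in the Gli2EKO library. Pparg was thus the only 1 of the 4 regulators with a ratio above 5 in both libraries.

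In fatty acid synthesis and desaturation, 6 of 9 members were called higher in sebocytes. Acly, which makes cytosolic acetyl-CoA from citrate, was at 440.2 and 429.9 CPM in sebocytes and 44.9 and 35.3 in other keratinocytes. Acaca, the acetyl-CoA carboxylase of the cytosol, was at 348 and 249 against 96.6 and 69.6. Fasn, the fatty acid synthase, was at 439 and 458 against 21.3 and 19.9. The ratios of these consecutive steps were unequal, 9.80-fold and 12.2-fold for Acly, 3.60-fold and 3.58-fold for Acaca and 20.6-fold and 23.1-fold for Fasn, and hair shaft cells had 268 and 250.3 CPM of Acaca, below sebocytes in the control and level with them in the Gli2EKO library.

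Acsl1, which activates long chain fatty acids with coenzyme A, was called higher in sebocytes at 105 and 156 CPM, yet spinous cells had 169 and 154 and granular-like cells 147 and 174. Fa2h, which places a hydroxyl group on fatty acids, showed the opposite extreme. It was at 2374 and 2909.7 CPM in sebocytes and at 1.85 and 1.10 in other keratinocytes, so that sebocytes held 96.6% and 98.5% of all keratinocyte UMIs of Fa2h from 2.15% and 2.45% of the keratinocyte UMIs. On the thinned cells, 61.4% and 57.7% of sebocytes had a Fa2h UMI (72.7% and 73.1% before thinning). The background share was 0 of 119 and 0 of 51 immune and endothelial cells, which allows up to 2.52% and 5.88%, at median depths of 9510 and 11518 UMIs.

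The desaturases split by gene. Scd1, the main stearoyl-CoA desaturase of sebocytes, was at 5258 and 5619.8 CPM in sebocytes and 24.4 and 18.6 in other keratinocytes, a ratio of 215-fold and 302-fold. Scd2, its paralog, was at 64.5 and 102 in sebocytes and 87.4 and 53.2 in other keratinocytes, so the ratio was below 1 in the control and above 1 in the Gli2EKO library, and the highest level was in hair shaft cells, at 245 and 214. Fads1 and Fads2, which make polyunsaturated fatty acids from dietary precursors, were nearly missing from sebocytes. Fads1 had 1 UMI in control and 0 in Gli2EKO sebocytes, and Fads2 had 0 in both, where 3 UMIs would be 3.02 and 3.70 CPM. Against other keratinocytes the control ratio of Fads1 was log2 -3.56 [-8.87, -1.08], and Fads2 was at least 4.43-fold lower. In the Gli2EKO library Fads1 was at least 1.69-fold lower, and Fads2 in other keratinocytes, at 3.71 CPM, was too close to the sebocyte limit for a fold. Both genes were found instead in dermal papilla cells, with 69.0 and 55.7 CPM for Fads1 and 35.8 and 24.9 for Fads2, and in immune cells, with 38.2 and 73.6 for Fads1 and 64.8 and 37.7 for Fads2. Among keratinocytes, control cells of the lower outer root sheath had 30.6 for Fads1 and 44.7 for Fads2. Reads of close paralogs such as the Scd genes can be split uncertainly, and this holds also for the Awat and Dgat2 family.

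All 6 elongases were called higher in sebocytes, and 3 of them by more than 100-fold in both libraries. Elovl6, which elongates palmitate, was at 8429 and 7900.0 CPM in sebocytes and 81.3 and 55.6 in other keratinocytes. Elovl4, the elongase of very long chain fatty acids, was at 6232 and 6679 against 49.0 and 53.1. Elovl3, an elongase of saturated and monounsaturated chains known from skin and brown fat, was at 1186 and 2185 against 3.57 and 6.35. These correspond to 104-fold and 142-fold for Elovl6, 127-fold and 126-fold for Elovl4 and 332-fold and 344-fold for Elovl3. Outside the gland their second sites differed: Elovl4 was next highest in granular-like cells (429.7 and 514 CPM), Elovl3 in hair shaft cells (44.2 and 237), and Elovl6 in inner root sheath and hair shaft cells (146 and 110.4 and, for the hair shaft, 144 and 128).

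The remaining elongases had smaller ratios. Elovl1, which serves saturated very long chains, was at 217 and 395 CPM in sebocytes and 269.6 and 308 in granular-like cells, so that granular-like cells were higher in the control and sebocytes in the Gli2EKO library. Elovl7 was at 197 and 243 in sebocytes and 174 and 157 in granular-like cells. These sebocyte levels leaned on 1 cell per library. That cell held 39.5% and 30.2% of the Elovl1 and 46.4% and 33.0% of the Elovl7 UMIs. The median sebocyte had 83.4 and 159 CPM of Elovl1 and 0 of Elovl7 in both libraries. Elovl5, which elongates polyunsaturated chains, was at 178 and 228 in sebocytes, below the 302 and 291 of the 26 and 20 smooth muscle and mural cells. Elovl1 and Elovl7 thus had granular levels close to the pooled levels of sebocytes, while Elovl3 had only 2 and 1 UMIs in granular-like cells.

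**Figure D2:**
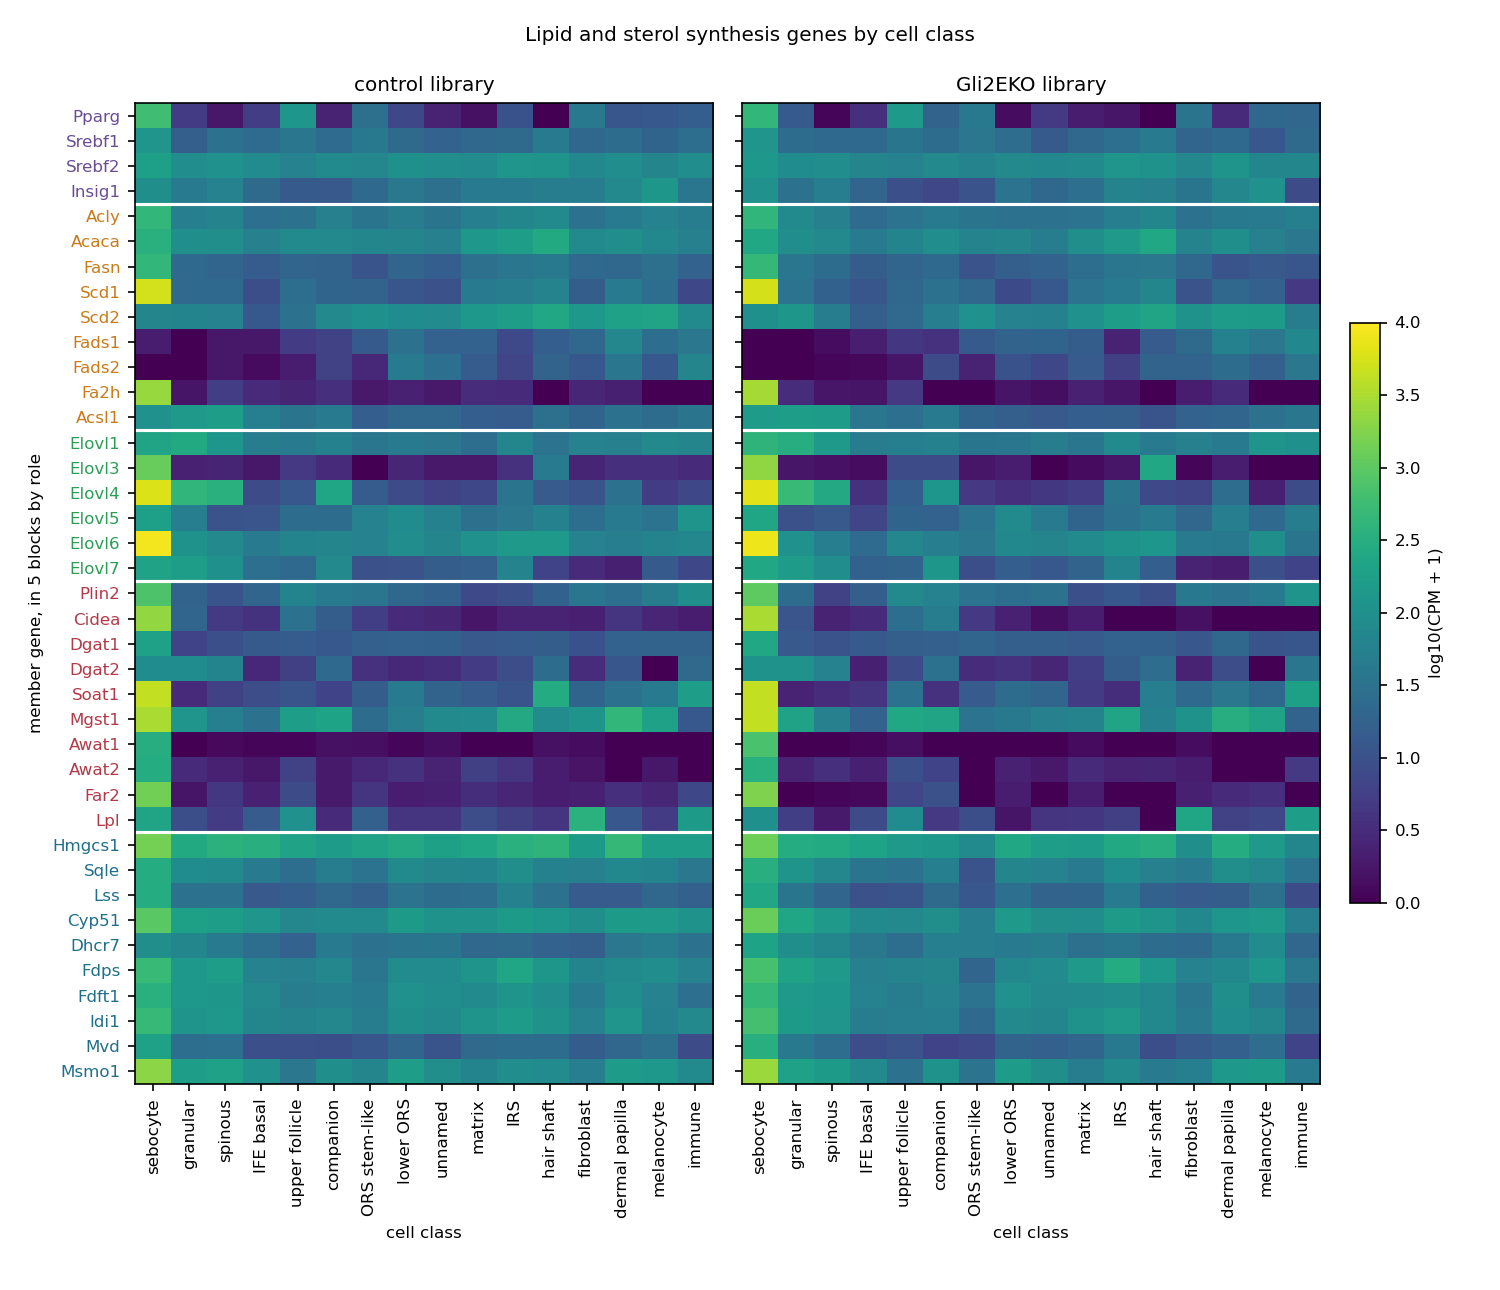
CPM of the 39 members (rows, in 5 blocks by role) in 16 cell classes (columns), left for the control and right for the Gli2EKO library, as log10 of CPM plus 1. The sebocyte column is the brightest for 32 members in the control and 31 in the Gli2EKO library. Fads1, Fads2, Scd2, Acsl1, Insig1 and Lpl are brighter elsewhere in both, Insig1 only barely in the Gli2EKO library.

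All 10 genes of storage, wax and sebum were called higher. Soat1, which makes sterol esters, was at 4225 and 4331 CPM in sebocytes against 27.7 and 11.7 in other keratinocytes, a ratio of 152-fold and 371-fold. Mgst1, a microsomal glutathione transferase, was at 3111 and 4218 against 96.7 and 81.6. Cidea, a lipid droplet protein that enlarges droplets, was at 2267 and 3097 against 6.89 and 6.77. Plin2, which coats droplets, was at 749 and 1024 against 23.5 and 25.7, a ratio of 31.9-fold and 39.9-fold. Each of these genes was also found elsewhere at a lower level, Soat1 in control hair shaft cells (284 CPM) and immune cells (166 and 188), Mgst1 in dermal papilla cells (440.5 and 311), and Plin2 in immune cells (97.7 and 117).

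Of the genes of wax ester synthesis, Awat1 and Far2 had over 90% of their keratinocyte UMIs in sebocytes and Awat2 fewer. Far2, which reduces fatty acyl-CoA to the fatty alcohol of a wax ester, was at 1389 and 1661 CPM in sebocytes and 2.56 and 1.48 in other keratinocytes. Awat1, an acyl-CoA wax alcohol acyltransferase, was at 312 and 709.6 against 0.206 and 0.129, where the other keratinocytes had 9 and 4 UMIs in all. The log2 ratio of Awat1 was accordingly wide, 10.57 [9.62, 11.71] and 12.43 [11.06, 14.31]. Awat2, the second wax acyltransferase, was at 300.2 and 349 against 2.70 and 2.68, and its next highest class was the upper follicle, with 5.11 and 8.62. Of all keratinocyte UMIs, sebocytes held 97.2% and 99.3% for Awat1, 92.4% and 96.7% for Far2, and 71.1% and 76.9% for Awat2. After thinning, 81.8% and 92.3% of sebocytes had a Far2 UMI and 22.7% and 46.2% an Awat1 UMI (97.7% and 100% and, for Awat1, 50% and 65.4% before thinning). In immune and endothelial cells, 1 of 119 and 0 of 51 cells had either gene.

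Dgat1 and Dgat2, which catalyse the last step of triglyceride synthesis, had different distributions. Dgat1 was at 196 and 250.1 CPM in sebocytes and 5.47 and 11.9 in granular-like cells, whereas Dgat2 was at 88.6 and 109.6 in sebocytes and 86.9 and 113 in granular-like cells. Lpl, the lipase that takes up fatty acids from lipoproteins, was at 218 and 101 in sebocytes, 352 and 223 in fibroblasts and 149 and 167 in immune cells. Lpl was thus higher in fibroblasts than in sebocytes in both libraries. Dgat2 was level in sebocytes and granular-like cells, with overlapping intervals in both libraries.

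All 10 sterol synthesis genes were called higher in sebocytes, by factors between 3.34 (Dhcr7) and 20.1 (Msmo1) in the control library. Msmo1, a demethylase of late sterol synthesis, was at 2003 and 2513 CPM in sebocytes and 99.5 and 87.5 in other keratinocytes, a ratio of 20.1-fold and 28.7-fold. Hmgcs1, which makes HMG-CoA at the head of the mevalonate pathway, was at 1434 and 1323 against 259 and 201, a ratio of 5.53-fold and 6.57-fold. Cyp51, the lanosterol demethylase, was at 943 and 1244 against 118 and 100.4. In the Gli2EKO library the same genes marked the ends of the range, at 4.79 for Dhcr7 and 28.7 for Msmo1.

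Of the enzymes that carry mevalonate to squalene, Mvd was at 193 and 333 CPM in control and Gli2EKO sebocytes. Idi1 was at 477 and 659, Fdps at 505 and 674 and Fdft1 at 339 and 456. Of these, Mvd had the largest ratio to other keratinocytes, 11.9-fold and 22.1-fold, and Fdft1 the smallest, 4.11-fold and 5.99-fold. Sqle, the squalene epoxidase, was at 295 and 338, and Lss, the lanosterol synthase that follows it, at 298 and 237. Dhcr7, a reductase of the last steps to cholesterol, was at 93.7 and 206 in sebocytes and 66.4 and 97.7 in granular-like cells. Sterol genes were present in every keratinocyte class. Outside the gland, their summed level ran in the control from 535 CPM in the upper follicle to 1356 in spinous cells, and in the Gli2EKO library from 310.2 in stem-like cells of the outer root sheath (ORS) to 1518 in granular-like cells.

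Since most members shared a class with high levels, the 250 bases before their start sites were read from the promoter windows of RefSeq (build GRCm38.p6, which is not the build of the counts). Windows were found for 27 of 39 members, 37 windows in all, among 32851 windows of all genes. The shown windows contrast a pair of sterol genes with the elongase Elovl4 and the wax gene Awat1, and capitals mark the motifs TCACNCCAC (a form of the sterol regulatory element), CCAAT and GGGCGG on either strand. Each sequence runs 5′ to 3′ on the gene's strand and ends at the base before the start site. The pair of GGGCGG matches in the Elovl4 window lie on the reverse strand and share 1 base.
Hmgcs1 (chr13:119690101-119690350, + strand): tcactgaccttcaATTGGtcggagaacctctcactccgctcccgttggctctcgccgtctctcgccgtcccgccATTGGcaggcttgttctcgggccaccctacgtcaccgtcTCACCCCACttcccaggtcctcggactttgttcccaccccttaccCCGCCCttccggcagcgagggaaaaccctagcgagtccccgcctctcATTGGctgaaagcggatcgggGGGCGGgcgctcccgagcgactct
Msmo1 (chr8:64733579-64733828, - strand): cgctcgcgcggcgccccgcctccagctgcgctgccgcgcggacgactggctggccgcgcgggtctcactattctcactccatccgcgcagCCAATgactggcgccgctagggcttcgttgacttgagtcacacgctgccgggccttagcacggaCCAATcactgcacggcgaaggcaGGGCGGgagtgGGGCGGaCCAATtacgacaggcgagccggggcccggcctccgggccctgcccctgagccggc
Elovl4 (chr9:83806306-83806555, - strand): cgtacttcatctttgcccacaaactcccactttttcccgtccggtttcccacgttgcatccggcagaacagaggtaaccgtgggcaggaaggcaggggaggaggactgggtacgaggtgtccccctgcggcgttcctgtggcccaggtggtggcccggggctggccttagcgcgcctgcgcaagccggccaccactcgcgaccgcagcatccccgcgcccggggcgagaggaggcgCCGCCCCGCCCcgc
Awat1 (chrX:100571997-100572246, + strand): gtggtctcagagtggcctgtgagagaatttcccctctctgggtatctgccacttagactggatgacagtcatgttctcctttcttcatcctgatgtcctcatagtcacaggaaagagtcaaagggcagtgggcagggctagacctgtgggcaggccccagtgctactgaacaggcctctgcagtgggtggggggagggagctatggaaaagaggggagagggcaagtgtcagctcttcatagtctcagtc

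The Hmgcs1 window held 6 marked motifs, among them the sterol element in its form TCACCCCAC, the Msmo1 window held 5, the Elovl4 window 2, and the Awat1 window 0. The exact letters TCACCCCAC or their reverse GTGGGGTGA were in 2 of 37 member windows (Hmgcs1 and Acsl1) and in 0.496% of all windows. CCAAT or ATTGG was in 21 of 37 member windows against 33.8% of all. Counted by gene and not by window, 7 of 7 sterol synthesis members and 4 of 4 regulators with an entry had it in at least 1 window. GGGCGG or CCGCCC was in 24 of 37 windows against 32.7%, again with 7 of 7 sterol members and 4 of 4 regulators. AGGTCA or TGACCT, a motif of nuclear receptors, was in 11 of 37 against 14.0%, and CACGTG in 3 of 37 against 6.02%. These are letter matches in short windows and describe neither binding nor activity.

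The granular-like class had some members above and some below other keratinocytes. Of 38 members with enough UMIs, 6 were called higher there than in other keratinocytes, where 6.16% of all genes were, and 6 were called lower, where 16.6% were. The higher ones were Elovl4 (429.7 and 514 against 49.0 and 53.1 CPM), Elovl1, Elovl7, Dgat2, Acsl1 and Dhcr7, with ratios from 2.37 (Dhcr7) to 8.77 (Elovl4) in the control. The lower ones were Fads1 and Fads2, with 0 UMIs in both libraries, and Elovl3, Soat1, Far2 and Lpl. Several of these calls rest on few UMIs. Far2 had 1 and 0, with a control log2 ratio of -1.91 [-7.22, 0.60] and a Gli2EKO upper bound of 0.95. Elovl3 had 2 and 1, with -1.38 [-4.44, 0.49] in the control. Far2 was thus not lower beyond counting error in either library, nor was Elovl3 in the control. Fads2 was at least 1.66-fold lower in the Gli2EKO library. Soat1 was at 2.05 and 1.49 CPM in granular-like cells, from 3 and 2 UMIs, against 4225 and 4331 in sebocytes, and Awat1 had 0 UMIs in granular-like cells. Granular-like cells and sebocytes were thus both above other keratinocytes in Elovl4, Elovl1, Elovl7, Dgat2, Acsl1 and Dhcr7, and stood apart in Soat1, Far2 and Awat1. Most of this was not particular to them, since spinous cells, pooled into other keratinocytes, were also high. They had 346 and 254 CPM of Elovl4, 127 and 139 of Elovl1, 61.7 and 58.8 of Dgat2 and 169 and 154 of Acsl1. Elovl7 was at 101 in control spinous cells. For Dhcr7, spinous cells ranked below melanocytes in both libraries. The median log2 ratio of the members was 0.25 and 0.89, and that of all genes -0.38 and -0.22.

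Dermal cells had few of these genes above the keratinocyte level. Of 38 members, 2 were called higher (Lpl and Fads1), where 18.2% of all genes were, and 6 lower (Elovl3, Elovl4, Elovl7, Cidea, Dgat2 and Awat2), where 14.4% were. Lpl was at 297 and 189.7 CPM in dermal cells and 20.8 and 15.8 in other keratinocytes. Fads1 was at 28.9 and 28.4 against 11.9 and 6.26. Elovl7 was at 1.93 and 1.36 against 29.7 and 34.4, the lowest of the members' dermal ratios in both libraries. The members' median log2 ratio was -0.35 and -0.26, and that of all genes -0.10 and 0.05.

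Single sebocytes differed widely in these genes. Pparg was in every cell, with a lowest of 51.5, a median of 613 and a highest of 1746 CPM in the control and a lowest of 98.1, a median of 413 and a highest of 1818 in the Gli2EKO library. Elovl4, in contrast, had UMIs in 22 of 44 control and 15 of 26 Gli2EKO sebocytes, with a lowest of 0, a median of 11.5 and a highest of 41964 CPM in the control and a lowest of 0, a median of 789 and a highest of 29861 in the Gli2EKO library. Awat1 had UMIs in 22 and 17 cells. These were largely the same cells, since 18 control and 15 Gli2EKO cells had both genes, 4 and 2 had only Awat1, 4 and 0 only Elovl4, and 18 and 9 neither.

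Ranked over the cells of 1 library, Elovl4 went with Awat1 (Spearman's rho 0.81 and 0.93), Scd1 (0.69 and 0.79), Fa2h (0.68 and 0.85), Acsl1 (0.69 and 0.70) and Msmo1 (0.61 and 0.73). It went against Pparg (-0.40 and -0.32), Srebf2 (-0.45 and -0.45), Dgat2 (-0.42 and -0.43) and Lpl (-0.33 and -0.30). These are descriptions over 44 and 26 cells that share a library and differ in depth. Cells with Elovl4 had a median of 24753.5 and 38866 UMIs and those without 15474.5 and 18745, and the level of Elovl4 itself had a rho of 0.34 and 0.60 with the cell's UMIs, against -0.35 and -0.35 for Pparg. The part of depth in these orders was not tested.

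**Figure D3:**
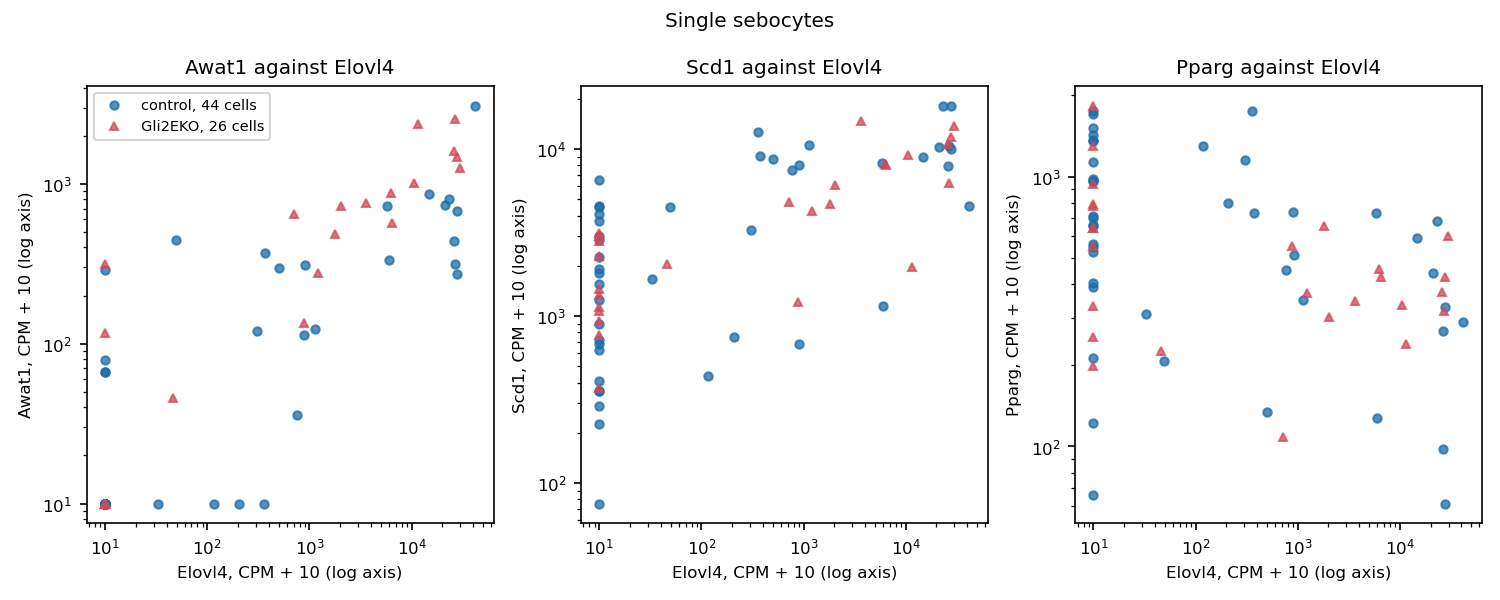
Awat1, Scd1 and Pparg (vertical axes) against Elovl4 (horizontal axes) in single sebocytes, as CPM plus 10 on log axes, with 44 control cells as circles and 26 Gli2EKO cells as triangles. Cells with high Elovl4 also lie high in Awat1 and Scd1, and most of the highest Pparg values lie among cells without Elovl4.

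A few cells carried much of some genes. In the control, 1 sebocyte held 39.5% of the Elovl1, 46.4% of the Elovl7 and 28.4% of the Awat1 UMIs, and the same cell was also highest for Elovl4, Plin2 and Awat2. It had 141 UMIs of the granular marker list. In the Gli2EKO library, 1 sebocyte was highest for 7 members, Elovl1, Elovl4, Elovl7 and Awat1 among them, and had 117 UMIs of the granular list. Ratios between the libraries are therefore also given without the top cell where it moved them.

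Between the libraries, sebocyte levels of most members lay within 1.5-fold. With a call set at 1.5-fold, 6 of 37 members were higher in Gli2EKO than in control sebocytes, where 4.83% of the 5093 genes with enough UMIs were, and 1 was lower, where 21.2% were. The median log2 ratio was 0.30 for the members and -0.15 for all genes. Elovl3 was at 1186 and 2185 CPM, a log2 ratio of 0.88 [0.78, 0.99]. Awat1 was at 312 and 709.6, log2 1.18 [0.98, 1.39], and 1.40 without the top cell of each library, when 8 members were higher and 1 lower. Dhcr7 was at 93.7 and 206, log2 1.13 [0.76, 1.52]. For each of these genes the median single cell was also higher in the Gli2EKO library, 488 and 909 for Elovl3, 13.0 and 286 for Awat1 and 0 and 104 for Dhcr7, although single cells of the libraries overlapped. Gli2EKO sebocytes were also deeper, and the level of these genes went with a cell's UMIs, with rho between 0.42 and 0.73, so the part of depth in these medians was not tested.

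Elovl1 was at 217 and 395 CPM, log2 0.87 [0.61, 1.12], and 1.11 without the top cells. Mvd was at 193 and 333, log2 0.78 [0.51, 1.06]. Scd2 was at 64.5 and 102, log2 0.67 [0.18, 1.16], with UMIs in 16 of 44 and 11 of 26 cells and 34.4% and 34.9% of them in 1 cell. The 6 genes were thus spread over elongation, wax, sterol synthesis and desaturation.

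Lpl was the only member called lower, at 218 and 101 CPM, log2 -1.11 [-1.49, -0.73], and -1.37 without the top cells. Fibroblast markers also summed to less in these cells, 434 CPM in control and 102 in Gli2EKO sebocytes, and Lpl was high in fibroblasts, at 352 and 223, so the part of fibroblast RNA in this value was not tested. Some members with narrow intervals lay near 0. Elovl6 had a log2 ratio of -0.09 [-0.14, -0.05] and Soat1 of 0.04 [-0.03, 0.10]. Scd1 was at 0.10 [0.04, 0.15] and Elovl4 at 0.10 [0.05, 0.15]. Others with narrow intervals lay above 0 without reaching 1.5-fold, Cidea at 0.45 [0.37, 0.53] and Mgst1 at 0.44 [0.37, 0.51]. Likewise, Msmo1 was at 0.33 [0.24, 0.42] and Fa2h at 0.29 [0.21, 0.38]. Pparg was at 592 and 445, log2 -0.41 [-0.61, -0.22], which did not reach 1.5-fold.

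**Figure D4:**
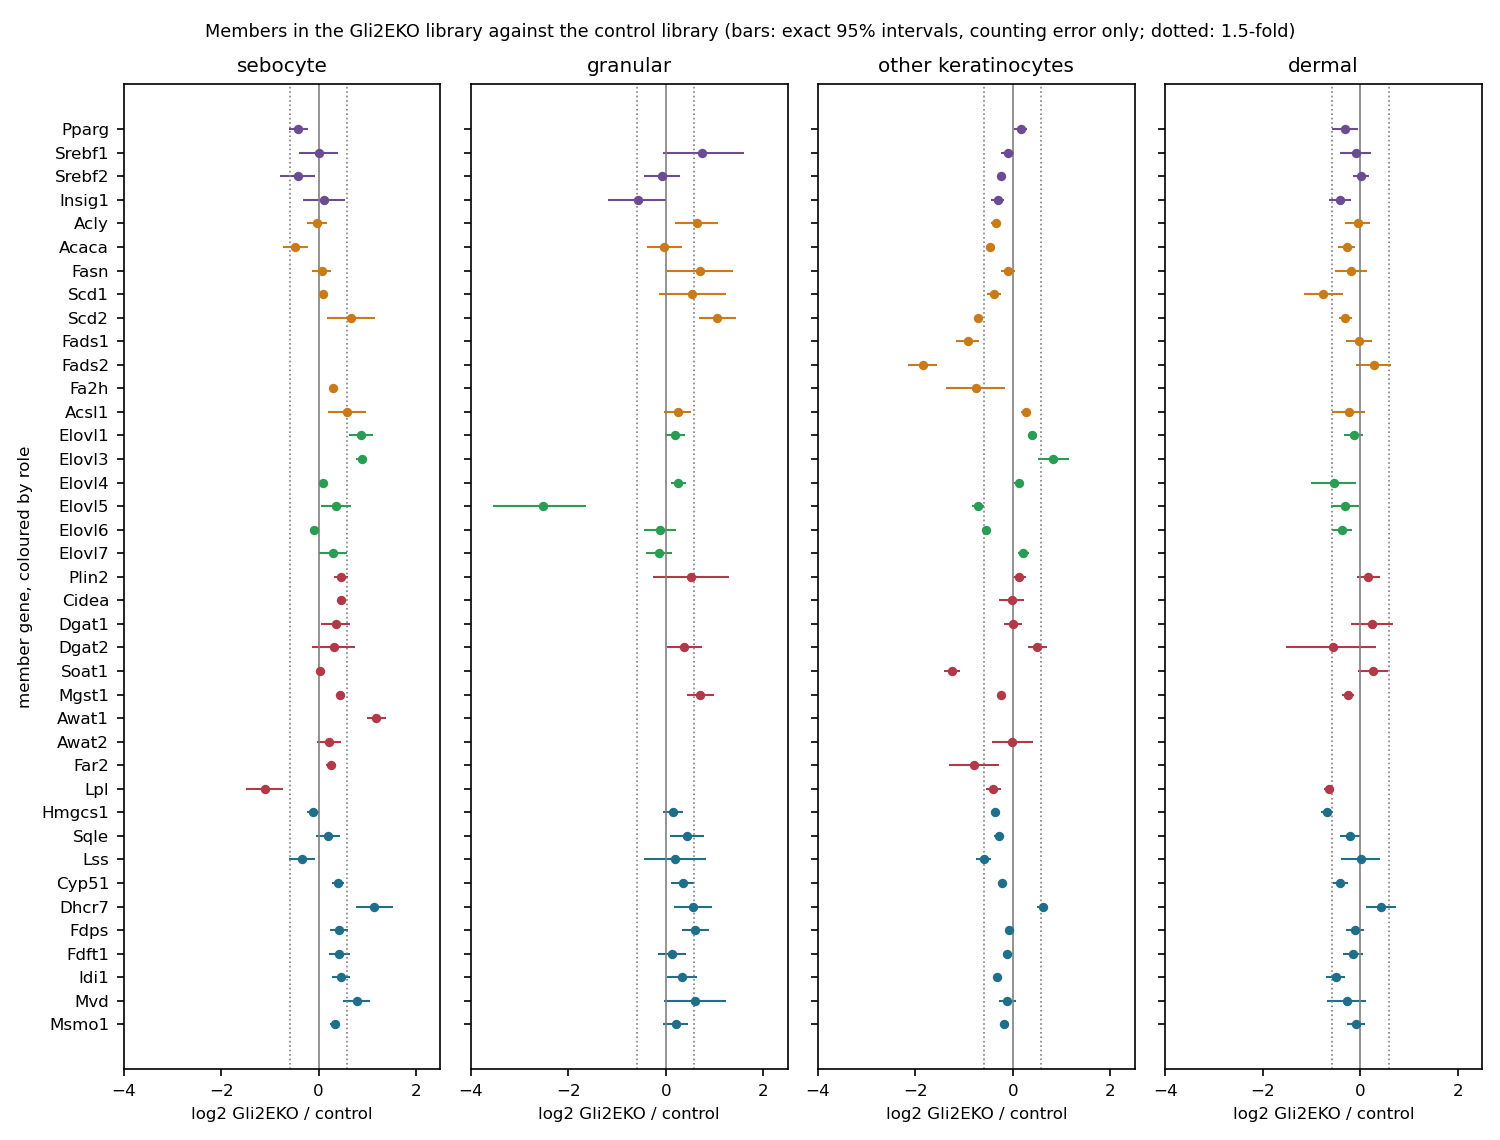
Log2 ratio of CPM in the Gli2EKO over the control library for each member, in sebocytes, granular-like cells, other keratinocytes and dermal cells, with exact 95% intervals for counting error and dotted lines at 1.5-fold; members under 50 UMIs in a class are left out. In sebocytes Awat1 and Dhcr7 lie farthest right and Lpl farthest left, and in other keratinocytes Fads2 and Soat1 lie farthest left.

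These calls depended on which cells were taken as sebocytes. With a mitochondrial limit of 10% the sebocyte cluster grew to 208 and 103 cells, and 24 members were higher and 0 lower. With cells picked by UMIs of at least 3 sebocyte markers, 363 and 239 cells, 0 were lower. Scd2 had a log2 ratio of 0.01 with the first choice and 0.24 with the second, Lpl -0.45 and -0.56, and Elovl1 1.19 and 0.46, so that Scd2 and Lpl lost their call with both and Elovl1 with the second. Elovl3, Awat1, Dhcr7 and Mvd stayed past 1.5-fold with either.

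In granular-like cells, 7 of 27 members were higher in the Gli2EKO library, where 11.3% of all genes were, and 1 was lower, where 12.0% were. The median log2 ratio was 0.33 for the members and 0.06 for all genes. Scd2 was at 63.0 and 131 CPM, log2 1.06 [0.69, 1.44]. Mgst1 was at 122 and 201, log2 0.71 [0.43, 0.99]. Fdps was at 133 and 204, log2 0.61 [0.34, 0.88], and Srebf1, Acly, Fasn and Mvd had log2 ratios from 0.59 to 0.75. The intervals of Srebf1 and Mvd included 0. The genes called higher with intervals above 0 were thus Scd2, Acly, Fasn, Mgst1 and Fdps, while Elovl4 had a log2 ratio of 0.26 [0.10, 0.42].

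Elovl5 was the gene called lower in granular-like cells, at 51.3 and 8.95 CPM, log2 -2.52 [-3.54, -1.63], and 1 control cell held 46.7% of its control UMIs. The markers of the class differed between the libraries, Lor being at 17562 and 609 CPM and Flg at 12951 and 4099.9. Few cells held most of the list, since the top 5 held 81.0% and 79.7% of the list's UMIs and the median cell had 400 and 298 CPM. The part of that difference in the members' values was not tested. The count of higher members fell to between 1 and 4 with 7 other choices of clustering, gate, scaling and doublets.

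In other keratinocytes the calls leaned the other way. Of 38 members, 2 were higher in the Gli2EKO library, where 4.35% of all genes were, and 8 lower, where 9.28% were. Fads2 was at 13.4 and 3.71 CPM, log2 -1.85 [-2.15, -1.56]. Soat1 was at 27.7 and 11.7, log2 -1.25 [-1.42, -1.08]. Fads1, Scd2, Elovl5, Lss, Far2 and Fa2h had log2 ratios from -0.93 to -0.60. The higher members were Elovl3 (3.57 and 6.35 CPM) and Dhcr7 (28.1 and 42.9). Over the pooled cells the desaturases Scd2, Fads1 and Fads2 were thus lower and Scd1, at -0.39 [-0.54, -0.24], did not reach 1.5-fold. Within single classes with at least 50 UMIs, the lowest log2 ratio was -0.61 for Scd2 and -0.81 for Fads1, both above the pooled ratios. Far2 was at -0.23 in its 1 such class, and Fads2 lay below 0 in 3 of 3, from -2.27 to -0.06. The median log2 ratio was -0.24 for the members and -0.13 for all genes.

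The keratinocyte classes were not present in equal shares. Interfollicular basal cells made up 11.2% of control and 25.2% of Gli2EKO keratinocytes, spinous cells 4.63% and 10.5%, and hair matrix cells 15.6% and 8.56%. With the Gli2EKO classes weighted to the control shares, 1 member was higher and 4 were lower. Fads2 was lower within the lower outer root sheath, at 44.7 and 9.25 CPM, log2 -2.27 [-2.90, -1.70]. Skeletal muscle genes, which none of these classes should hold, summed to 1.01 CPM in control and 107 in Gli2EKO other keratinocytes, and their part was not tested.

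Soat1 and Elovl3 differed most in the hair shaft. Soat1 was at 284 and 50.7 CPM there, log2 -2.49 [-3.06, -1.96], and in the upper follicle at 10.1 and 31.8, log2 1.66 [1.22, 2.11]. Elovl3 was at 44.2 and 237 in the hair shaft, log2 2.42 [2.03, 2.82]. These genes thus differed in opposite directions, over 204 control and 80 Gli2EKO hair shaft cells. Dhcr7 was higher in the Gli2EKO library in 10 of 10 classes of other keratinocytes, with log2 ratios from 0.23 to 0.75. Hmgcs1 and Idi1 were lower in these 10 of 10, with ratios from -1.36 to -0.12 and from -1.07 to -0.07. In sebocytes and granular-like cells Idi1 was instead higher, at log2 0.46 [0.28, 0.65] and 0.34 [0.03, 0.64]. Hmgcs1 was at -0.12 in sebocytes and 0.15 [-0.06, 0.35] in granular-like cells. These classes share the same libraries and are not repeats. Outside keratinocytes, Dhcr7 was also higher in dermal cells, at 18.9 and 25.4 CPM, and in melanocytes, at 47.8 and 85.5. Hmgcs1 and Idi1 were also lower in dermal cells, Idi1 at 69.1 and 48.8.

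Dermal cells, in which the keratin 14 promoter is not active, differed too. Of 32 members 0 were higher, where 3.06% of all genes were, and 3 were lower, where 4.19% were. The median log2 ratio was -0.22 for the members and -0.01 for all genes. Scd1 was at 18.8 and 11.2 CPM, log2 -0.75 [-1.16, -0.36]. Lpl was at 297 and 189.7, log2 -0.65 [-0.74, -0.55], and Hmgcs1 at 203 and 127, log2 -0.68 [-0.80, -0.56]. These dermal values were of the size of several in keratinocytes, and a difference between the libraries as such cannot be told apart from one of genotype.

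Summed by role, sebocytes held 16439 and 17630.5 CPM of elongation genes, 12856 and 15849 of storage, wax and sebum genes, 9029.5 and 9925 of fatty acid genes, 6582 and 7981 of sterol genes and 991 and 806 of regulators. The log2 ratio of the libraries over all 39 members was 0.19 [0.17, 0.20] in sebocytes, 0.26 [0.20, 0.32] in granular-like cells, -0.23 [-0.25, -0.22] in other keratinocytes and -0.31 [-0.34, -0.27] in dermal cells. Sebocytes and granular-like cells therefore lay above 0 and other keratinocytes and dermal cells below it. The granular sum compares classes that differed in their markers, and it lay between 0.061 and 0.13 without integration, at resolution 1.0, with the members kept for clustering, with the marker gate and with the automatic doublet threshold. In the hair shaft, the storage genes summed to 431 and 159, and the elongases to 297 and 473.

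**Figure D5:**
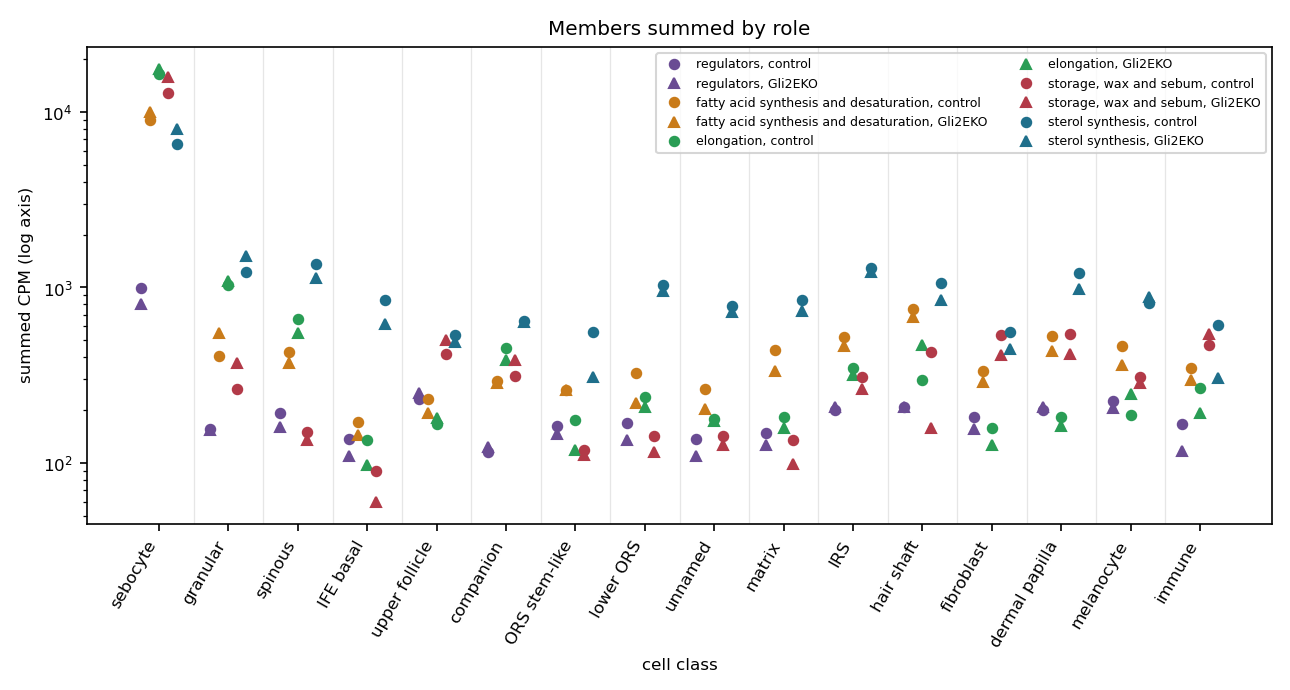
CPM summed over the members of each role (colour) in 16 cell classes, on a log axis, with circles for the control and triangles for the Gli2EKO library. Sebocytes lie highest in every role, at 16439 and 17630.5 for elongation, and storage genes lie lower in Gli2EKO (159) than in control (431) hair shaft cells.

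A list of 78 other genes of these pathways, set by function, followed the gland in part. Of 70 with enough UMIs, 44 were higher in sebocytes and 8 lower, where 9.75% and 17.7% of all genes were. The 5 with the largest ratios were Plin4, Scd3, Dgat2l6, Cd36 and Acacb. Scd3, a further desaturase, was at 199 and 707 CPM in sebocytes and 0.389 and 0.581 in other keratinocytes. Acacb, the acetyl-CoA carboxylase of mitochondria, was at 353 and 303 against 2.61 and 1.87. Among the lower genes, Lipe, the hormone-sensitive lipase, had 0 UMIs in sebocytes, and Sc5d, a desaturase of late sterol synthesis, was at 12.1 and 9.85 against 41.9 and 39.3.

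Granular-like cells had 21 of 68 companion genes higher and 8 lower, where 6.16% and 16.6% of all genes were, and 13 of the 16 barrier lipid genes were among the higher ones. Alox12b, a lipoxygenase of the barrier, was at 22.6 and 31.3 CPM in granular-like cells, and Aloxe3, which acts with it, at 36.3 and 23.9, and both had 0 UMIs in sebocytes. Abca12, the lipid transporter of lamellar granules, was at 232 and 273 in granular-like cells and 122 and 108 in sebocytes. Dermal cells had 7 of 70 higher and 15 lower, where 18.2% and 14.4% were.

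Between the libraries, 9 of 46 companion genes were higher in Gli2EKO sebocytes and 3 lower, where 4.83% and 21.2% of all genes were. Scd3 was at 199 and 707 CPM in control and Gli2EKO sebocytes, log2 1.83 [1.59, 2.07], and Dgat2l6, a relative of Awat1, was at 65.5 and 158, log2 1.27. Fabp5, a fatty acid binding protein, was at 12781 and 21639, log2 0.76. Mvk, Pmvk, Insig2, Agpat2 and Cyp4f39 were among the other higher genes, and Lbr, Scap and Acsl4 were lower. In granular-like cells 6 of 48 were higher and 3 lower, where 11.3% and 12.0% of all genes were, and in other keratinocytes 1 and 10 of 65, where 4.35% and 9.28% were. In dermal cells the counts were 1 and 2 of 54, where 3.06% and 4.19% were.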

How the data were processed

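Epidermal cells from postnatal day 2 back skin were measured with the 10x 3' polyA assay, in 1 library per genotype. According to the labels and the study's methods, the authors ran Cell Ranger 9.0.1 against GRCm39, and the deposited values are whole-number UMI counts per gene and barcode, not normalized. Everything below was computed here. Cells with over 1000 and under 8000 genes and under 15% mitochondrial UMIs were kept (4844 control and 3362 Gli2EKO cells). The 8% of cells with the highest Scrublet doublet scores (scanpy 1.11.5, expected rate 0.06) were removed from each library, since the automatic threshold marked 261 control but 5 Gli2EKO cells, which left 4456 and 3093 cells. The study used another doublet caller.

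Cells were clustered with Seurat 5.3.0 in R 4.3.3 (2000 variable genes without the members and companion genes, 20 principal components, Harmony integration, resolution 0.5), and clusters were named by fixed markers or left unnamed. For each class of each library, a gene's UMIs were added up over the cells and divided by all UMIs of these cells (CPM, per 1000000). Intervals are exact Poisson for CPM, exact conditional binomial for ratios and Clopper-Pearson for shares, at 95%, and a count of 0 was bounded by 3 UMIs. Calls needed 2-fold in both libraries and 20 UMIs between classes, and 1.5-fold and 50 UMIs between libraries, with 0.5 UMIs added. No test or p-value was possible with 1 library per genotype, and intervals treat UMIs as independent. All 39 members could be named, and companion genes by the size of their ratio or their role. The members, lists and rules were chosen with earlier results of these data known. Scripts were tested on simulated data. Alternatives covered doublets, clustering, class definition, the mitochondrial limit, scaling, the UMI minimum and class shares. Promoter windows are from RefSeq.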

Additional observations from a re-analysis of the deposited data

Results flagged for a closer look

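Scd2 stood out because the Gli2EKO over control ratio pointed in opposite directions in different cells. The log2 ratio was 0.67 in sebocytes, 1.06 in granular-like cells and -0.72 in other keratinocytes. The difference between these classes was not tested, since each genotype has 1 library. Within the 10 classes of other keratinocytes, Scd2 lay below 0 in 8 and above 0 in 2, from -0.61 to 0.38, so the pooled value lay outside the range of its classes, whose shares differed between the libraries.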

How the results depend on the processing

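No paired analysis was possible because each genotype has 1 library, and for the same reason no library could be left out. The number of members higher in sebocytes than in other keratinocytes, 35 of 39 as reported, ranged from 24 with the gate by markers and 27 with the mitochondrial limit of 10% to 36 with the other scaling. Below, counts are of members, and sums are log2 ratios of Gli2EKO over control over all 39 members.

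Without doublet removal, 3 members were lower in dermal cells, 2 higher in Gli2EKO granular-like cells, and 3 higher and 1 lower in Gli2EKO dermal cells, with sums of 0.16 in sebocytes, 0.17 in granular and -0.22 in dermal cells. With Scrublet's automatic threshold, 3 were lower in dermal cells, 3 higher in Gli2EKO granular and 4 higher in Gli2EKO dermal cells, with sums of 0.085 (granular) and -0.23 (dermal). At resolution 1.0, 1 was higher in Gli2EKO granular-like cells, with a sum of 0.13. Without integration, 3 were lower in granular-like cells, 4 higher in Gli2EKO granular-like cells and 4 higher in Gli2EKO other keratinocytes, with sums of 0.23 in sebocytes and 0.061 in granular-like cells, and Far2 in Gli2EKO granular over other keratinocytes turned to 3.34. With members kept among the variable genes, 1 was higher in Gli2EKO granular-like cells and 1 in other keratinocytes, with sums of 0.11 and -0.29.

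With a mitochondrial limit of 10%, 1 member was lower in sebocytes, 24 were higher and 0 lower in Gli2EKO sebocytes and 2 lower in Gli2EKO granular-like cells, with sums of 0.67 in sebocytes and -0.25 in other keratinocytes, and Far2 in control granular-like cells turned to 0.013. That class held 208 and 103 cells. With cells gated by markers (363 and 239 sebocytes, 502 of these 602 cells with exactly 3 markers), 3 were lower in granular-like cells, 4 higher and 1 lower in dermal cells, 0 lower in Gli2EKO sebocytes and 3 higher in Gli2EKO granular-like cells, with sums of 0.35, 0.13 and -0.31 in sebocytes, granular-like cells and other keratinocytes; Insig1 in control sebocytes turned to -0.065 and Far2 in control granular-like cells to 0.13. With scaling by the median of gene ratios, 12 were higher and 3 lower in granular-like cells, 11 higher in Gli2EKO sebocytes, and 4 higher and 2 lower in Gli2EKO granular-like cells, with sums of 0.34, 0.20 and -0.10. Before that scaling the median log2 ratio of all genes was -0.27 and -0.46 for sebocytes and -0.48 and -0.33 for granular-like cells over other keratinocytes, so ratios moved up by these amounts. With no minimum of UMIs, 2 were lower in Gli2EKO sebocytes, 5 lower in granular-like cells, and 1 higher and 5 lower in dermal cells. Weighted to control shares, 1 was higher and 4 lower in Gli2EKO other keratinocytes, with a sum of -0.20.

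Means of single-cell CPM and leaving out the top cell were chosen after seeing the data; the former gave 2 lower in Gli2EKO sebocytes, 2 lower in granular-like cells and 1 higher in other keratinocytes. The cause of these changes was not tested. Of 3489 values under alternatives, 4 reversed, all given above. Many more kept their direction or count but not their size: 19 of the sums and 798 other values moved outside the interval of the main setting. Sebocyte values rest on 44 and 26 cells, and genes under 50 UMIs in a class were not compared between libraries.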

Other observations

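Several members had their own highest class outside the gland. Insig1 was highest in melanocytes, Scd2 in hair shaft cells and Lpl in fibroblasts in both libraries. In the Gli2EKO library Insig1 was level in melanocytes and sebocytes, at 106 and 105 CPM. Acsl1 was highest in spinous cells of the control, at 169 CPM, and in granular-like cells of the Gli2EKO library, at 174. In the companion layer of the follicle, Elovl4 was at 230.1 and 124 CPM, log2 -0.90 [-1.18, -0.62], and Elovl7 at 76.2 and 129.8, log2 0.77 [0.43, 1.10]. Immune cells held less of the sterol genes in the Gli2EKO library, 614 and 307 CPM summed over 95 and 45 cells.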
